A study of Sus scrofa with 6 samples.

Results

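Sertoli cells seal the seminiferous epithelium with the blood-testis barrier, and 9 genes of its tight, gap and adherens junctions and of their links to actin were followed here in cultured pig cells. The 9 genes, named by symbol, are GJA1, TJP1, OCLN, F11R, CTNNB1, CTNNA1, NECTIN2, AFDN and VCL. By matching pig Ensembl identifiers to symbols, 8 of the 9 were found among the 20731 genes of the deposited table, and NECTIN2 was matched to no row and is not analysed here. All 8 stood at 1 FPKM or more in each of the 6 libraries, where FPKM gives sequenced fragments relative to gene length and library size. The cells of both groups were immature porcine Sertoli cells with no stated genotype change. The 3 MT libraries came from cells given melatonin, the pineal hormone, at 10 nM for 36 h, and the 3 Control libraries carry no stated agent, vehicle or time. The sources used here do not say how many animals or cultures the cells came from, so each p-value reflects the scatter of these 6 libraries alone, and that scatter may be technical.

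The barrier lies between neighbouring Sertoli cells near the base of the tubule, and, unlike most epithelial seals, it mixes tight junctions, gap junctions, desmosomes and an actin-rich adherens junction called the basal ectoplasmic specialization. Tight junction strands are built from claudins and occludin, and scaffold proteins tie them to actin. Adherens junctions hold cells together through cadherins with catenins and through nectins with afadin. Gap junction channels let small molecules pass between cells. The barrier forms as Sertoli cells mature, and it opens and closes again as germ cells move across it.

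The reads assigned to genes, inferred from the step size of low FPKM values, totalled 19579279 to 21500665 per library. Reads assigned to no gene are not in these totals. Control 3 stood apart from the other libraries. Its correlation across the 10950 tested genes was 0.938 and 0.939 with the other Control libraries and 0.952 to 0.975 with the MT libraries, while Control 1 and Control 2 had 0.993 (genes are not independent replicates). The comparison is therefore also given without Control 3. That choice was made from these same values, and it leaves Control 1 and Control 2, the Control libraries most alike. The standard errors and adjusted p-values of that fit can therefore understate the scatter of Control. Of 12 Sertoli markers, 5 had a mean of at least 1 FPKM, namely SOX9, WT1, AMH, INHBB and CLU. GATA4, FSHR and CLDN11 had pig Ensembl identifiers that were absent from the table. KITLG, INHA, DHH and TF stayed below 0.48 FPKM in every library. Peritubular myoid markers were split. ACTA2 stood at no more than 0.207 FPKM, MYH11 at no more than 0.041 and ACTG2 at no more than 0.601. CNN1 stood at 0.83 to 1.07 FPKM, DES at 5.55 to 9.43 and TAGLN at 153.7 to 256.9. The 6 myoid markers summed to 160.7 to 265.4 FPKM in Control and 162.2 to 194.6 in MT. Of the markers of Leydig, germ, endothelial and macrophage cells, 4 had a mean of at least 1 FPKM, with CD68, a macrophage marker, the highest. CD68 did not overlap between the groups, at 3.18 to 4.14 FPKM in Control and 4.50 to 5.30 in MT. The same held for 11.2% of all tested genes. AIF1, another macrophage marker, overlapped and had the lower mean in MT (0.439 FPKM in Control and 0.289 in MT). CSF1R and CD163 stayed at no more than 0.052 FPKM, and PTPRC was matched to no row. The part of other cells in the junction gene values was not tested.

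The comparison of MT with Control asked whether the transcripts of these junction genes differ after melatonin. None of the 8 measured genes passed the test. In limma on log2(FPKM + 1), with Benjamini-Hochberg adjustment over all 10950 tested genes, 0 of 8 passed an adjusted p of 0.05, as did 0 of all tested genes (0%). At an unadjusted p of 0.05 the counts were 0 of 8 and 517 of 10950 (4.72%), and limma voom on recovered reads gave 0 of 8 and 470 (4.29%). The values of the 2 groups overlapped in all 8 genes. They did not overlap in 11.2% of tested genes, a share at which 0 of 8 does not set these genes apart. The log2 differences (MT minus Control) ran from -0.14 for F11R to 0.10 for CTNNA1, with a median of 0.04 against 0.02 for all tested genes, and -0.05 against -0.0037 without Control 3. The 95% intervals of 7 of the genes lay between 0.766-fold and 1.31-fold on the FPKM + 1 scale, and that of GJA1 between 0.714-fold and 1.57-fold. In bulk RNA, fewer cells of a type and less RNA per cell cannot be told apart.

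**Figure D1:**
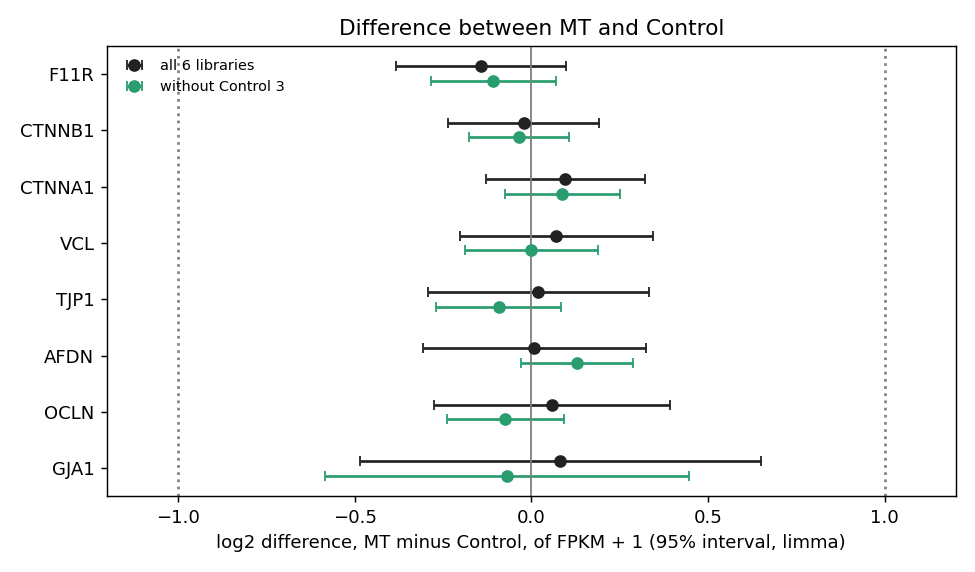
Log2 difference (MT minus Control) of FPKM + 1 for each of the 8 junction genes, with its 95% interval from limma, over all 6 libraries (black) and without Control 3 (green). Dotted lines mark a 2-fold change. Every interval spans 0, and the widest is that of GJA1, from -0.49 to 0.65 over 6 libraries.

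Without Control 3, where 1194 of the tested genes passed (10.9%), 0 of 8 junction genes passed. The smallest adjusted p among them was 0.20, for AFDN. The sign of several small differences turned: 6 of 8 genes were higher in MT over all libraries (56.0% of all tested genes were), 5 with median-of-ratios scaling, 7 after quantile normalisation and 3 without Control 3.

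Levels differed more between the genes than between the groups. F11R had a mean of 72.1 FPKM over the 6 libraries, and CTNNB1 and CTNNA1 had 68.5 each. The ranges of these 3 overlapped, so their order is not resolved. VCL followed at 52.3 FPKM and lay below CTNNA1 in 6 of 6 libraries. TJP1 at 16.9 and AFDN at 15.6 FPKM came next, with overlapping ranges and TJP1 higher in 5 of 6 libraries. OCLN stood at 9.82 FPKM, below AFDN in every library with no overlap of the ranges. GJA1 was the lowest at 6.04 FPKM and lay below OCLN in 6 of 6 libraries, although the ranges of these 2 overlapped. Against all tested genes, F11R was above 94.4% of them, OCLN above 56.6% and GJA1 above 40.4%.

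**Figure D2:**
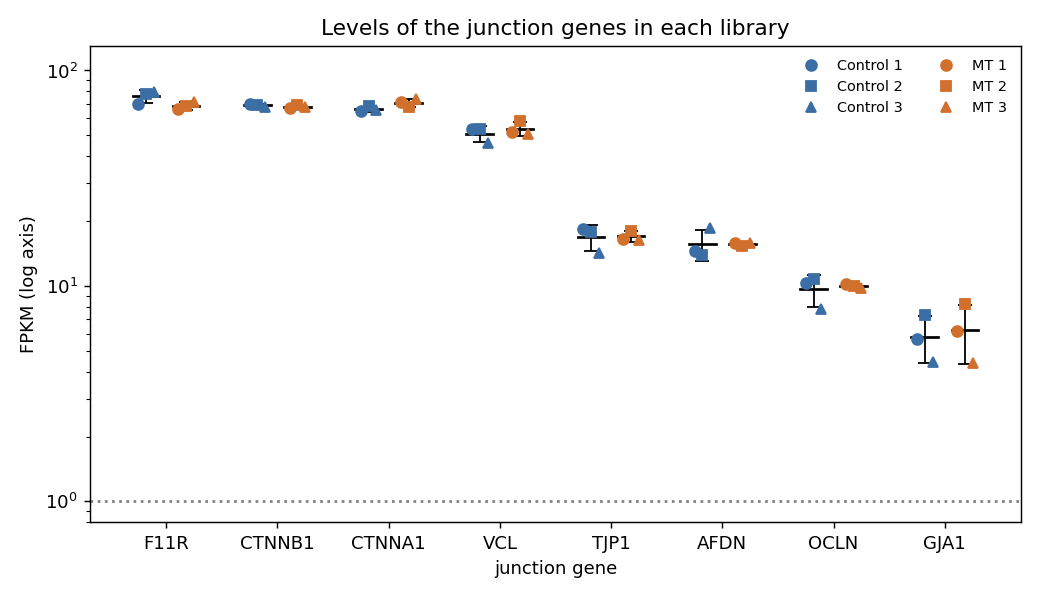
FPKM (log axis) of the 8 junction genes in each library, ordered by mean. Symbols are single libraries (blue Control, orange MT, shape by replicate), horizontal bars are group means and whiskers are SD (n = 3), and the dotted line marks 1 FPKM. F11R, CTNNB1 and CTNNA1 share the top near 70 FPKM, and the lowest single value is 4.39 FPKM for GJA1 in MT 3.

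The gap junction gene was the most variable of the set. GJA1 (ENSSSCG00000004241, chromosome 1, 40988818 to 41002129) encodes connexin 43, the main gap junction protein between Sertoli cells and towards germ cells. It stood at 5.66, 7.32 and 4.45 FPKM in Control 1 to 3 and at 6.20, 8.23 and 4.39 FPKM in MT 1 to 3. Each group thus held a high and a low library, and the groups covered nearly the same range. The means were 5.81 ± 1.44 FPKM in Control and 6.28 ± 1.92 in MT (SD, n = 3), a log2 difference of 0.08 (SE 0.24) that stood at -0.07 (SE 0.22) with Control 3 left out. These values rested on 315 to 584 reads per library. The coefficient of variation was 24.8% in Control and 30.6% in MT, against 4.97% and 4.69% from read counting alone, so the spread exceeded that of read sampling. Over all tested genes, 24.1% had a wider range over the 6 libraries than GJA1.

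Among the other connexins, GJB1 (connexin 32) and GJC1 (connexin 45) were low. GJB1 had a mean of 3.59 FPKM with a range from 1.88 to 5.61, and GJC1 had 1.95 FPKM. PANX1, a channel protein related in shape to connexins, averaged 3.63 ± 0.327 FPKM in the Control libraries and 3.05 ± 0.224 in the MT libraries (n = 3). Its groups did not overlap, but its log2 difference of -0.19 (SE 0.11) did not pass. Of 9 other gap junction genes listed, 5 had a row, 3 were tested and 0 passed with or without Control 3. Their median log2 difference was -0.07, and -0.23 without Control 3.

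The tight junction set comprised a scaffold and 2 membrane proteins. TJP1 (ENSSSCG00000004854, chromosome 1, 144930387 to 145195857) encodes ZO-1, which binds occludin, claudins and connexin 43 and ties them to actin. It stood at 18.4, 17.9 and 14.1 FPKM in Control 1 to 3 and at 16.6, 18.1 and 16.3 in MT 1 to 3. Control 3 was the lowest library, and the MT values lay between it and Control 1. The means were 16.8 ± 2.33 and 17.0 ± 0.947 FPKM (n = 3), a log2 difference of 0.02 (SE 0.13), and -0.09 when Control 3 was left out.

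OCLN (ENSSSCG00000021514, chromosome 16, 47600175 to 47652435) encodes occludin, a membrane protein of the tight junction strand. It stood at 10.4, 10.8 and 7.77 FPKM in Control 1 to 3 and at 10.2, 9.99 and 9.79 in MT 1 to 3. The 3 MT libraries were close together, below Control 1 and Control 2 and above Control 3. The means were 9.65 ± 1.64 and 10.0 ± 0.227 FPKM (n = 3), a log2 difference of 0.06 (SE 0.14), or -0.07 without Control 3. OCLN and TJP1 kept nearly the same proportion in every library: the ratio of OCLN to TJP1 ran from 0.549 to 0.617, a 1.12-fold spread. The ratio of AFDN to TJP1 spread 1.69-fold, from 0.776 to 1.31, with its highest value in Control 3. These ratios were picked after their values were seen and were not tested.

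F11R (ENSSSCG00000006369, chromosome 4, 89425101 to 89447889) encodes JAM-A, an immunoglobulin-like adhesion protein of tight junctions. It stood at 70.0, 77.9 and 79.6 FPKM in Control 1 to 3 and at 66.1, 68.0 and 71.3 in MT 1 to 3. Only MT 3 reached above the lowest Control library. The means were 75.8 ± 5.11 and 68.5 ± 2.64 FPKM (n = 3). The log2 difference of -0.14 (SE 0.10) was the furthest from 0 of the 8 and did not pass (adjusted p 0.9998). With Control 3 left out it was -0.11 (adjusted p 0.32). Over 6 libraries 33.9% of tested genes had a larger difference in either direction.

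Of the 8 genes, the 2 catenin genes had the narrowest ranges over the 6 libraries. CTNNB1 (ENSSSCG00000011274, chromosome 13, 25163550 to 25208314) encodes beta-catenin, which binds the cadherin tail and also acts in Wnt signalling. It stood at 69.8, 69.4 and 67.7 FPKM in Control 1 to 3 and at 67.3, 69.1 and 67.4 in MT 1 to 3. The groups interleaved, with means of 69.0 ± 1.12 and 67.9 ± 1.005 FPKM (n = 3) and a log2 difference of -0.02 (SE 0.09), or -0.04 without Control 3. Its range over the 6 libraries was 0.05 on the log2 scale, and 99.9% of tested genes had a wider one, where the median was 0.54. CTNNB1 stood above 94.0% of tested genes in level, and read counting adds less spread at high levels. Its range was not compared with that of genes of like level. Its coefficient of variation was 1.62% in Control and 1.48% in MT, against 0.878% and 0.869% from read counting alone.

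CTNNA1 (ENSSSCG00000014339, chromosome 2, 140682776 to 140869828) encodes alpha-catenin, which links beta-catenin to actin. It stood at 64.9, 68.2 and 65.3 FPKM in Control 1 to 3 and at 71.1, 67.6 and 73.8 in MT 1 to 3. MT 2 lay below Control 2, and the other MT libraries lay above all Control libraries. The means were 66.1 ± 1.83 and 70.8 ± 3.12 FPKM (n = 3), a log2 difference of 0.10 (SE 0.09), and 0.09 when Control 3 was left out. The ratio of CTNNA1 to CTNNB1 ran from 0.930 to 1.09.

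AFDN (ENSSSCG00000004018, chromosome 1, 1569652 to 1698475) encodes afadin, which couples nectins to actin. It stood at 14.5, 13.9 and 18.6 FPKM in Control 1 to 3 and at 15.7, 15.4 and 15.7 in MT 1 to 3. Control 3 was the highest library and the other Control libraries were the lowest, with the MT libraries between them. The means were 15.7 ± 2.56 and 15.6 ± 0.219 FPKM (n = 3), 0.01 apart on the log2 scale (SE 0.13). Without Control 3 the difference was 0.13 (SE 0.07, adjusted p 0.20). NECTIN2, a nectin that afadin binds, is the gene without a matched row. Of the other nectins, NECTIN3 had a mean of 8.42 FPKM and NECTIN1 stood at no more than 0.149 FPKM.

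VCL (ENSSSCG00000010313, chromosome 14, 76700143 to 76811875) encodes vinculin, which reinforces the bond of junctions and focal adhesions to actin. It stood at 53.5, 53.4 and 46.0 FPKM in Control 1 to 3 and at 51.6, 58.3 and 50.8 in MT 1 to 3. MT 2 was the highest and Control 3 the lowest. The means were 51.0 ± 4.32 and 53.6 ± 4.12 FPKM (n = 3), a log2 difference of 0.07 (SE 0.11), which was 0.0002 without Control 3.

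Control 3 moved the junction genes in different directions. Against the mean of Control 1 and Control 2 it was lower in GJA1 (-0.45 on the log2 scale), OCLN (-0.40), TJP1 (-0.34) and VCL (-0.21). It was higher in AFDN (0.37) and F11R (0.11), and it stood near the others in CTNNB1 (-0.04) and CTNNA1 (-0.03). The median size of the deviation was 0.28 in the 8 genes and 0.415 in all tested genes. The MT means deviated from Control 1 and Control 2 by -0.11 in F11R to 0.13 in AFDN.

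**Figure D3:**
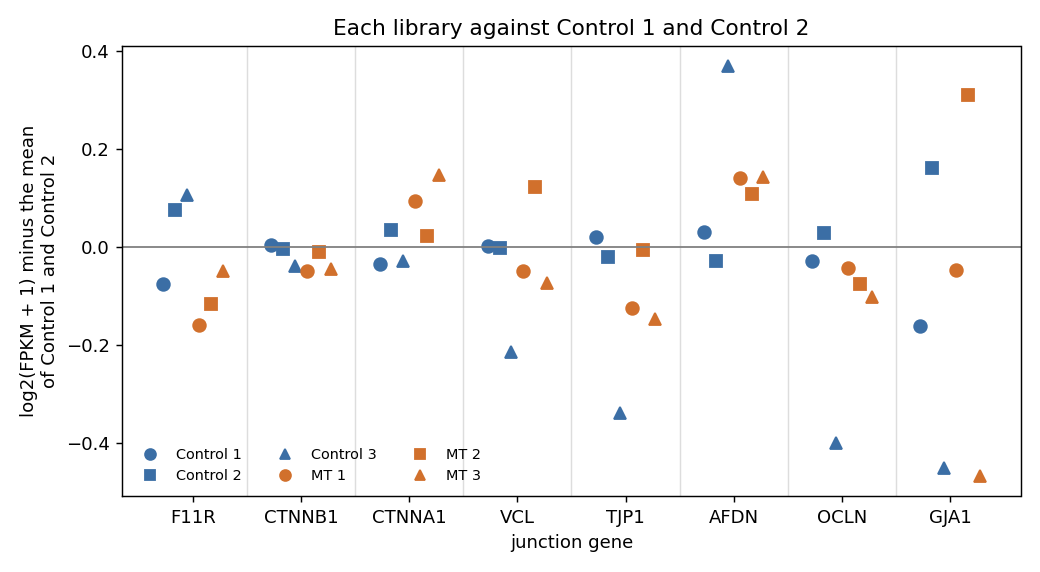
Log2(FPKM + 1) of each library minus the mean of Control 1 and Control 2, for each of the 8 junction genes (blue Control, orange MT, shape by replicate). Control 3 (blue triangle) is the lowest library in TJP1, OCLN and VCL and the highest in AFDN and F11R, while the 6 libraries span 0.0526 in CTNNB1.

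The tested genes with a symbol whose pattern was most like the mean of the 8 were PHF11, PTPRG and MPP7, with Pearson correlations of 0.993, 0.989 and 0.985 over the 6 libraries. They were picked as the highest of all tested genes with a symbol, and over 6 libraries such selection alone can give values this high. That mean pattern was highest in MT 2 and Control 2 and lowest in Control 3, and the 6 points share the library scaling. It does not hold for each gene, since AFDN and F11R were highest in Control 3. PTPRG, for example, was at 17.2, 19.3 and 13.9 FPKM in Control 1 to 3 and at 17.6, 20.8 and 16.2 in MT 1 to 3.

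Other genes of the barrier were taken from 5 lists of 96 genes, of which 83 had a row and 66 were tested. Over 6 libraries 0 of 66 passed in limma and 0 had an unadjusted p under 0.05, beside 4.72% of all tested genes. Of the 66, 40 were higher and 26 lower in MT (60.6% higher, beside 56.0% of all tested genes), with a median log2 difference of 0.05 beside 0.02, and the groups did not overlap in 7 (10.6%, beside 11.2%). Without Control 3, 35 of the 66 were higher (53.0%, beside 49.4%), and 11 passed (16.7%, beside 10.9% of all tested genes), 7 upward (beside 4.28% of all tested genes) and 4 downward (beside 6.62%). In all 11 of these genes Control 3 lay on the MT side of Control 1 and Control 2, and in 7 of them it lay beyond all 3 MT libraries. These shares were not computed over all genes that passed without Control 3, so the pattern cannot be called particular to barrier genes.

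Claudin 1 transcripts stood above those of all 8 junction genes. CLDN1, which encodes a strand-forming tight junction protein, stood at 282.7, 297.3 and 234.0 FPKM in Control 1 to 3 and at 220.4, 235.8 and 221.9 in MT 1 to 3. All MT libraries lay below Control 1 and Control 2, and Control 3 lay just below MT 2. The means were 271.3 ± 33.1 and 226.0 ± 8.51 FPKM (n = 3), a log2 difference of -0.26 (SE 0.12) that did not pass. Without Control 3 the log2 difference of CLDN1 was -0.36 (SE 0.07, adjusted p 0.032 in limma). That p-value leaves out the scatter that Control 3 adds. Of the 5 other claudins listed, 3 had a row and were below 1 FPKM in every library, with CLDN3 at no more than 0.795, CLDN15 at no more than 0.669 and CLDN5 at no more than 0.020. CLDN11, the claudin best known from the Sertoli cell barrier, had a pig Ensembl identifier that was absent from the table. It is not analysed here.

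Of 16 other tight junction genes tested, 13 were higher in MT (81.25%, beside 56.0% of all tested genes), and 0 passed. Their median log2 difference was 0.105, beside 0.02. Without Control 3, 9 of the 16 were higher (56.25%, beside 49.4%) and the median was 0.06, beside -0.0037. The polarity scaffold PATJ was at 6.25 ± 1.14 FPKM in Control against 7.39 in MT (range 6.42 to 8.58), and the scaffold MAGI1 was at 6.17 ± 0.108 and 6.74 ± 0.135 with no overlap of the groups (n = 3). Without Control 3, CLDN1 and PALS1 fell (PALS1 -0.35), whereas over 6 libraries PALS1 had a log2 difference of -0.06 (SE 0.24). PALS1, a polarity scaffold, stood at 8.79, 9.65 and 4.62 FPKM in Control 1 to 3 and at 6.77 to 7.21 in MT, so that Control 3 was below every MT library.

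Of 9 other adherens junction and desmosome genes tested, 6 were higher in MT (66.7%, beside 56.0% of all tested genes), and 0 passed. Their median was 0.06, beside 0.02. Without Control 3, 4 of the 9 were higher (44.4%, beside 49.4%) and the median was -0.04, beside -0.0037. DSP, which encodes desmoplakin, the desmosome's link to intermediate filaments, averaged 27.0 ± 1.13 FPKM in the Control libraries and 30.7 ± 0.734 in the MT libraries, with no overlap. PLEKHA7, an adherens junction protein that binds p120 catenin, was at 6.12 ± 0.586 and 6.97 ± 0.194, and the cadherin CDH1 was at 10.2 ± 0.771 and 8.88 ± 1.68 (all n = 3). CDH2, the cadherin best known from Sertoli cells, had a pig Ensembl identifier that was absent from the table. JUP, which encodes plakoglobin, a close relative of beta-catenin, stood at 66.8, 68.4 and 105.9 FPKM in Control 1 to 3 and at 90.4, 80.9 and 89.1 in MT 1 to 3. The log2 difference of JUP was 0.14 (SE 0.19) over 6 libraries and did not pass. JUP rose without Control 3 (0.35, SE 0.07, adjusted p 0.037), whereas CTNNB1 had -0.04 (SE 0.06) there.

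Of 26 other actin link genes tested, 15 were higher in MT (57.7%, beside 56.0% of all tested genes), and 0 passed over 6 libraries. Their median was 0.03, beside 0.02. Without Control 3, 17 of the 26 were higher (65.4%, beside 49.4%) and the median was 0.13, beside -0.0037. PXN, which encodes the focal adhesion adaptor paxillin, stood at 10.3, 9.95 and 13.1 FPKM in Control 1 to 3 and at 13.7, 13.1 and 14.3 in MT 1 to 3. Its log2 difference was 0.29 (SE 0.13), and it rose without Control 3 (0.40, adjusted p 0.032). The kinase gene SRC was at 20.5 ± 5.04 and 22.5 to 24.0 FPKM in Control and MT, and LIMK1, whose kinase inactivates cofilin, was at 3.58 ± 0.997 and 3.96 to 5.10. Their log2 differences were 0.19 and 0.29 over 6 libraries, where neither passed, and both rose without Control 3 (0.37 and 0.46). TLN1 (talin) and FLNA (filamin A), named after their values were seen, also rose there (0.24 and 0.26), and ACTR2, a subunit of the Arp2/3 complex, fell (-0.41). Over 6 libraries the differences of TLN1, FLNA and ACTR2 were 0.08, 0.02 and -0.03, and none passed. In SRC, TLN1, FLNA and ACTR2, Control 3 lay beyond all MT libraries, as with FLNA at 136.7 FPKM in Control 3 against 95.8 to 101.7 in MT and 78.9 and 83.9 in Control 1 and Control 2.

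Of 12 barrier regulators tested, 5 were higher in MT (41.7%, beside 56.0% of all tested genes) and 7 lower, and 0 passed. Their median was -0.02, beside 0.02. Without Control 3, 4 of the 12 were higher (33.3%, beside 49.4%) and the median was -0.16, beside -0.0037. SOX9, a transcription factor of Sertoli cell identity, averaged 2.13 ± 0.298 FPKM in the Control libraries and 1.68 ± 0.114 in the MT libraries (n = 3). MARK4, a microtubule affinity-regulating kinase, was at 5.27 ± 1.06 and 5.84 to 6.85 FPKM. Without Control 3 MARK4 rose (0.39) and ITCH, an E3 ubiquitin ligase gene, fell (-0.46). Over 6 libraries their log2 differences were 0.25 and -0.03, and neither passed. ITCH stood at 14.1 and 13.1 FPKM in Control 1 and Control 2, 4.99 in Control 3, and at least 8.87 in every MT library.

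**Figure D4:**
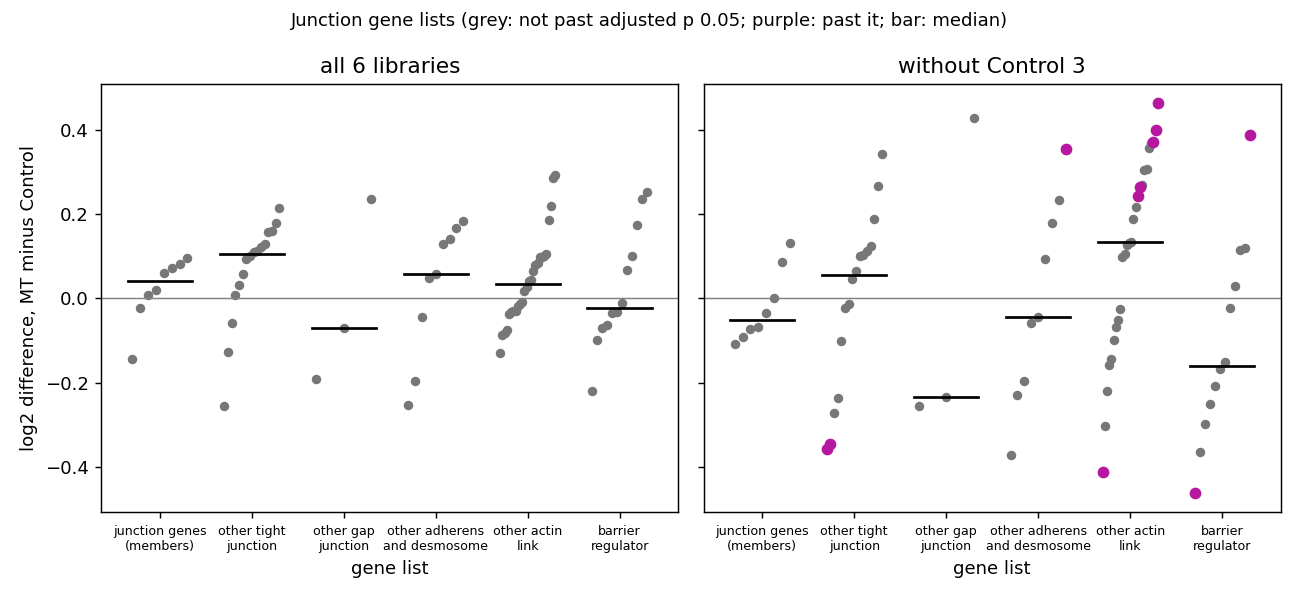
Log2 difference (MT minus Control) of every tested gene in the set of 8 junction genes and in the 5 lists of other barrier genes, over all 6 libraries (left) and without Control 3 (right). Black bars are medians, grey points did not pass an adjusted p of 0.05 in limma and purple points did. No point passes on the left, and 11 of the 66 other genes and 0 of the 8 junction genes pass on the right.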

How the data were processed

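Total RNA of 6 samples was sequenced, and groups and replicate numbers came from the sample titles. The authors deposited FPKM with 1 column per library, made, per the submitters' processing notes, with bcl2fastq, HISAT2, featureCounts and Subread on build Sscrofa11.1. The sources used here do not give tool versions, annotation release, strand setting or filters. FPKM is tied to each library's sum, so abundant transcripts can move other values, and without a known strand setting antisense reads cannot be told apart.

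Symbols were matched for 13173 of 20731 identifiers (63.5%). NECTIN2 had no pig Ensembl identifier in the symbol reference, whereas CLDN11, CDH2, GATA4 and FSHR had identifiers absent from the deposited table. That table held 0 rows at 0 FPKM in all libraries, so genes without any read may be absent from it. Whether these 4 genes had reads was not tested. Positions are those of RefSeq's Sscrofa11.1 table by symbol. The 10950 genes whose mean reached 1 FPKM were tested by limma 3.58.1 (R 4.3.3) on the log2(FPKM + 1) scale (variance trend, two-sided, group only, Benjamini-Hochberg, threshold 0.05), checked on simulated data. Read numbers were recovered from FPKM steps for 100.0% of tested genes within 0.01 of a whole number; where a gene's 6 read numbers share a divisor, smaller ones are recovered. They cover counting error only. Libraries of a group had chi-square values of 6.35 to 149.1 per degree of freedom against sampling noise, so none was taken as a copy.

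The members and lists were chosen with earlier results of these data known. Named genes are the members, the 3 genes of smallest p in each list, the claudins and the 3 nearest patterns. JUP, NECTIN1, NECTIN3, TLN1, FLNA, ACTR2, PALS1 and ITCH were named after their values were seen. CDH2, which had no values, was also named outside this rule. Genes named by this rule but left out are not reported here. Python 3.11.15 was used for tables and plots.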

Additional observations from a re-analysis of the deposited data

How the results depend on the processing

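The alternatives were a pseudocount of 0.1, no filter on low values, median-of-ratios scaling, quantile normalisation, voom on recovered reads, a replicate block and leaving out each library. Of the 8 junction genes, 0 passed in any of these fits. In the 6 alternatives on all libraries, 46 of 48 differences of these genes kept their sign, and the exceptions were CTNNB1 after quantile normalisation (0.0073) and AFDN with median-of-ratios scaling (-0.0105). FLNA also turned there (-0.0020). With 1 library left out, 41 of 48 kept it. The ranges over those fits were -0.0925 to 0.0873 for TJP1, -0.0738 to 0.14 for OCLN, -0.11 to 0.28 for GJA1 and -0.0682 to 0.13 for AFDN. TJP1, OCLN and GJA1 turned negative without Control 3, TJP1 and GJA1 also without MT 2, and AFDN turned negative without Control 1 or Control 2. The ranges were -0.0154 to 0.50 for GJB1, -0.25 to 0.0393 for GJC1, -0.0328 to 0.15 for PHF11, -0.0106 to 0.21 for PTPRG and -0.0483 to 0.23 for MPP7. They were 0.03 to 0.35 for JUP, -0.0021 to 0.24 for TLN1, -0.13 to 0.26 for FLNA, -0.41 to 0.16 for ACTR2, -0.35 to 0.12 for PALS1 and -0.46 to 0.21 for ITCH. With 1 library left out, 0 to 1194 of all tested genes and 0 to 11 of the 66 other barrier genes passed, with counts above 0 only without Control 3. The cause was not tested.

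Same-numbered libraries did not deviate together throughout: the correlation of their deviations over tested genes was -0.44, 0.63 and 0.34 for numbers 1, 2 and 3, and neither library numbered 1 correlated best with the other. With the replicate block 0 genes passed and 499 had an unadjusted p under 0.05. Read counting alone gave coefficients of variation of 0.869% to 4.97% in the 8 junction genes, and in MT the observed 2.27% of OCLN and 1.40% of AFDN were no larger than the 2.86% and 1.6% from counting.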
